A study of Mus musculus with 36 samples.

Results

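A set of 9 genes that the tumour suppressor p53 is known to switch on was followed in whole livers of mice given carbon tetrachloride (CCl4) for up to a year: Cdkn1a, Mdm2, Ccng1, Bax, Phlda3, Eda2r, Zmat3, Trp53inp1 and Aen. They were taken by symbol from a deposited table of raw counts, as 9 of its 32544 gene symbols. All 9 had enough counts to be tested, among 15338 genes in all. The choice was made by name and not by level, although with earlier results of these data known.

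The 36 livers came from male C57BL/6N mice that were 8 to 10 weeks old at the start, in 6 groups of 6. CCl4, which hepatocytes turn into a radical that kills cells around the central vein, was dissolved in olive oil and injected into the peritoneum, 1 g for each kg of weight, over 2, 6 or 12 months. Olive oil alone was injected over 2 or 12 months, and mice were sampled 6 days past their final injection. The remaining 6 livers are titled as month 0 controls, while their treatment label names olive oil. No oil group of month 6 is among the samples, so month 6 CCl4 was set against both oil groups, averaged on the log scale. The groups of months 0, 2, 6 and 12 also differ in age. Each library is called a mouse here and numbered as in the labels. The p-values measure the spread between these libraries.

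p53 is a transcription factor that is held at a low level by Mdm2, a ubiquitin ligase that marks it for destruction. Damage to DNA and other stresses release it from Mdm2, and it then binds its sites near target genes. Cdkn1a encodes p21, the inhibitor of cyclin-dependent kinases that holds cells before DNA replication. Mdm2 and Ccng1 (cyclin G1) act back on p53. Bax opens the outer mitochondrial membrane in apoptosis, Aen is a nuclease that acts in apoptosis, Phlda3 restrains Akt at the membrane, and Eda2r is a receptor of the TNF receptor family. Zmat3 is an RNA-binding protein, and Trp53inp1 acts in p53-dependent death and in autophagy. In liver, p21 is best known for holding back hepatocyte division after injury. Cdkn1a is also known to follow the circadian clock in this organ.

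The genes lie at these places in GENCODE vM21 (GRCm38, the mm10 assembly): Cdkn1a at chr17:29090976-29100727 (plus strand), Mdm2 at chr10:117688875-117710758 (minus), Ccng1 at chr11:40748552-40755311 (minus), Bax at chr7:45461697-45466898 (minus), Phlda3 at chr1:135766119-135769136 (plus), Eda2r at chrX:97333840-97377216 (minus), Zmat3 at chr3:32334792-32366014 (minus), Trp53inp1 at chr4:11156431-11174379 (plus) and Aen at chr7:78895854-78911209 (plus). Each is protein coding, and a count covers the whole gene, not 1 isoform. Cdkn1a overlaps an antisense model and Bax another protein-coding gene model on its own strand. Neither of these has a row of its own in the table, and no source used here says how reads over them were assigned.

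The start regions of the members are shown because p53 acts through sites near its target genes. Such sites are part of why these genes are known as p53 targets, so that their share among the members is not independent of the choice by name. RefSeq start windows (GRCm38.p6) of 300 bases, from 250 bases before to 50 after each annotated start, matched 7 of the 9 members by symbol. Those named only are Zmat3 and Trp53inp1. Each window was searched on both strands for the 20-base p53 consensus site, a pair of 10-base elements with no spacer, with at most 3 mismatches. Capitals mark the match and lower case the 25 bases on either side, 5′ to 3′ on the gene's strand. For Aen, where the match lies in an exon, only the match is printed.
Cdkn1a, chr17:29090903-29090972, plus strand: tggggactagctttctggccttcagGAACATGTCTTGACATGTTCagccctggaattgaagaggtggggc
Ccng1, chr11:40755437-40755506, minus strand: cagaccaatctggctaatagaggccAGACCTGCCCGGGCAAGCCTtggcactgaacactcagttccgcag
Bax, chr7:45467065-45467134, minus strand: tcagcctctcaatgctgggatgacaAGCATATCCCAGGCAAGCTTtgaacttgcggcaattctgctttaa
Aen, chr7:78895937-78895956, plus strand: GGGCTTGTCCGGGCAAGGAG

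The Cdkn1a match begins 51 bases before its first annotated start and departs from the consensus at 1 base. The window of a later Cdkn1a start (chr17:29093519-29093818) had a best match with 5 mismatches, above the limit. The Ccng1 match, 195 bases before the start, also has 1 mismatch. The matches of Bax, 211 bases before the start, and of Aen, 10 bases after its first start, have 3 mismatches each. The best windows of Phlda3 and Mdm2 had 5 mismatches and that of Eda2r had 6, all above the limit in this window. A match with at most 3 mismatches was thus found in 4 of 7 members (57.1%), in 7.20% of 27025 genes with a window, in 15.4% of 39 other p53 targets and in 21.7% of 23 cell cycle genes. A match with at most 1 mismatch was found in 2 of 7 members and in 29 of the 27025 genes. These matches describe letters and are no measure of binding.

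Each library held between 19403247 and 28917545 counts. All 10 hepatocyte markers were present in each group, and their summed level lay between 76011 and 169005 CPM (counts scaled to a common library total). Transcripts of the exocrine pancreas, which lies next to the liver, varied from 9.30 to 29270 CPM between libraries, with 29270 CPM in month 2 CCl4 mouse 5 and 25588 CPM in month 12 oil mouse 4. Of the month 2 CCl4 libraries, mouse 1 stood apart in erythroid markers (7311 CPM) and neutrophil markers (212 CPM) and mouse 6 in intestinal markers (708 CPM). Results are therefore also given without 4 libraries that hold foreign transcripts, of other tissues or of blood (month 2 CCl4 mice 1 and 6, month 2 oil mouse 2 and month 12 oil mouse 2). These 4 were named from earlier results of these data and do not include the 2 libraries with the pancreas values just given, each of which was left out singly. Without month 12 oil mouse 4, the month 12 effect of CCl4 against oil was 2.67 for Cdkn1a, 3.13 for Phlda3, 1.68 for Eda2r and 0.90 for Bax on the log2 scale, with 6 of 9 members called. With all 36 libraries, 7 of 9 members and 25.9% of all tested genes were called higher in this comparison. Without month 2 CCl4 mouse 5, no member was called at month 2. Fewer cells of a type and less RNA per cell cannot be told apart in whole tissue.

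The members spanned a wide range of levels per length. In month 12 oil livers, the mean CPM per kb of exon was 19.9985 for Trp53inp1, 17.5 for Ccng1, 6.99 for Bax and 4.99 for Mdm2. It was 2.11 for Aen, 0.905 for Phlda3, 0.786 for Cdkn1a, 0.434 for Zmat3 and 0.320 for Eda2r. Cdkn1a, Phlda3, Zmat3 and Eda2r were thus the weakly expressed members.

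**Figure D1:**
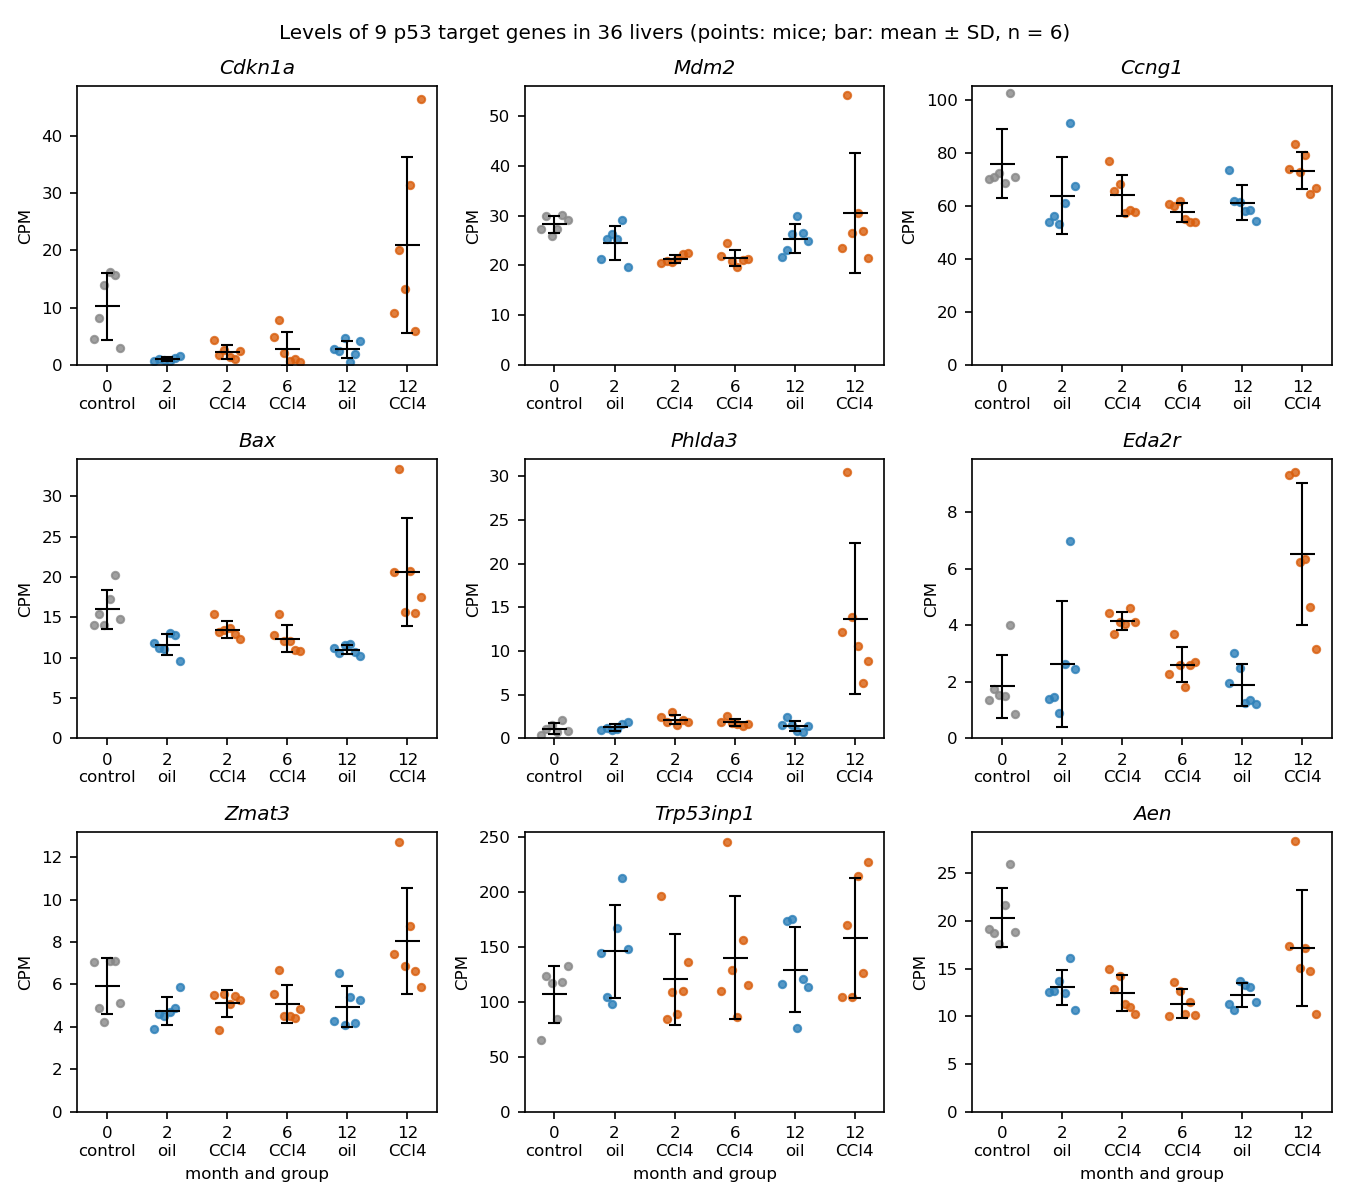
Level of each gene in CPM (vertical axis from 0, own scale per gene) in the 6 groups of 6 mice. Points are mice and black bars the mean ± SD. Cdkn1a is high at month 0 (mean 10.3) and highest in month 12 CCl4 (20.99), and Phlda3 is high in month 12 CCl4 alone (13.7).

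After 12 months of CCl4, 7 of the 9 genes were higher in the liver than after 12 months of oil, with the largest differences among the 9 in Phlda3 and Cdkn1a. Phlda3 was 9.65-fold and Cdkn1a 7.496-fold higher, Eda2r 3.45-fold and Bax 1.87-fold. Zmat3, Aen and Ccng1 rose by 1.62-fold or less, and Mdm2 and Trp53inp1 did not pass the test. With edgeR's quasi-likelihood test, and p-values adjusted by Benjamini-Hochberg across the 15338 genes and called below 0.05, 7 of the 9 members were called higher and 0 lower. In the same comparison 25.9% of all tested genes were called higher and 23.2% lower. The ranges of the 2 groups did not overlap for Cdkn1a, Bax, Phlda3 and Eda2r, 4 of 9, while 12.1% of all tested genes were higher without overlap. The median log2 fold change was 0.70 over the members and 0.01 over all tested genes. Library totals alone, without the scaling by TMM, moved the median of all genes to 0.56 and called 10331 genes higher and 592 lower, among them all 9 members higher, so that changes are given relative to the TMM scaling.

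Cdkn1a, the arrest gene, had a lowest value of 0.587, a median of 2.62 and a highest value of 4.67 CPM in month 12 oil. In month 12 CCl4 these were 5.92, 16.6 and 46.3 CPM. Every CCl4 liver lay above every oil liver. In CPM, month 12 CCl4 also had the widest spread of the 6 groups (SD 15.4, against 1.51 in month 12 oil). Relative to the mean it did not: month 6 CCl4 alone had an SD (2.96) above its mean (2.89). The log2 fold change was 2.91 (SE 0.56, adjusted p = 6.23e-05).

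Phlda3, the Akt inhibitor, was between 0.721 and 2.42 CPM in month 12 oil, with a median of 1.46. In month 12 CCl4 it was between 6.38 and 30.4 CPM, with a median of 11.4. Again no CCl4 liver reached down to the oil livers, and the log2 fold change was 3.27 (SE 0.33, adjusted p = 1.26e-09). Its level in month 12 CCl4 was also above the range of each other group. Phlda3 was the one member with such a break: in the order of group means, no other neighbouring pair of groups of any member had separate ranges. How many of all tested genes had such a break was not counted.

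Bax, which drives mitochondrial apoptosis, was between 10.2 and 11.7 CPM in oil (median 11.01) and between 15.5 and 33.4 CPM in CCl4 (median 19.1). The log2 fold change was 0.90 (SE 0.13, adjusted p = 7.52e-07). Eda2r, the TNF family receptor, was between 1.22 and 3.01 CPM in oil (median 1.66) and between 3.15 and 9.42 CPM in CCl4 (median 6.29). Its log2 fold change was 1.79 (SE 0.36, adjusted p = 1.11e-04), and its ranges were close but separate.

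Zmat3, the RNA-binding member, was between 4.08 and 6.53 CPM in oil and between 5.88 and 12.7 CPM in CCl4 (log2 fold change 0.70, SE 0.16, adjusted p = 5.90e-04). Aen, the nuclease, was between 10.7 and 13.7 CPM in oil and between 10.2 and 28.3 CPM in CCl4 (0.49, SE 0.15, adjusted p = 0.00760). For both genes the groups overlapped, and for Aen 1 CCl4 mouse was below every oil mouse. Without CCl4 mouse 2, the highest of the group, Aen was at 0.30 (adjusted p = 0.0474).

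The feedback genes moved least. Ccng1 was between 54.4 and 73.5 CPM in oil and between 64.6 and 83.3 CPM in CCl4 (0.26, SE 0.11, adjusted p = 0.0497). That call rests on the margin of the threshold and was lost when any 1 of 8 libraries was left out, with values from 0.22 to 0.28. Those were month 12 oil mice 2 to 6 and month 12 CCl4 mice 1, 2 and 4. Mdm2 was between 21.6 and 29.9 CPM in oil and between 21.5 and 54.2 CPM in CCl4 (0.27, SE 0.13, adjusted p = 0.102). Without CCl4 mouse 2 the log2 fold change was 0.04 (adjusted p = 0.716). Without CCl4 mouse 1 or mouse 6, Mdm2 was called, at 0.35 and 0.37. Trp53inp1 was between 76.4 and 176 CPM in oil and between 104 and 228 CPM in CCl4 (0.29, SE 0.25, adjusted p = 0.367), a wide overlap.

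**Figure D2:**
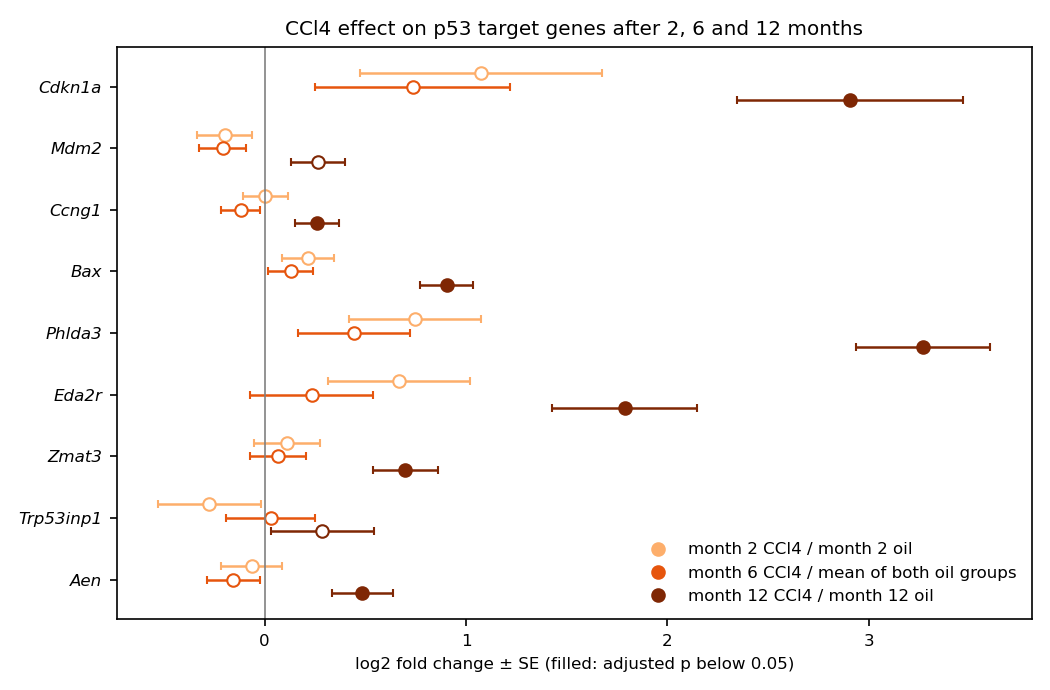
Log2 fold change ± SE of the 9 genes under CCl4 at month 2 (against month 2 oil), month 6 (against the mean of both oil groups) and month 12 (against month 12 oil). Filled points are called at an adjusted p below 0.05: 7 of the month 12 points are filled, and none of the points of months 2 and 6.

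At month 2 no member was called by edgeR, and 1 of 9, Phlda3, had an unadjusted p below 0.05. DESeq2 called none and limma-voom 1 (Eda2r, 1.02, adjusted p = 0.0454). Of all tested genes 10.4% were called in either direction at this time. Cdkn1a had a median of 0.978 CPM in month 2 oil (range 0.731 to 1.63) and of 2.07 CPM in month 2 CCl4 (range 1.01 to 4.35), an overlap of ranges (log2 fold change 1.08, SE 0.60, adjusted p = 0.274). Phlda3 had a median of 1.11 CPM in oil (range 0.923 to 1.92) and of 2.02 CPM in CCl4 (range 1.53 to 3.07), with a log2 fold change of 0.74 (SE 0.33, adjusted p = 0.148). Eda2r in CCl4 was between 3.69 and 4.59 CPM and thus above all oil mice but mouse 5, which had 6.98 CPM. Its log2 fold change was 0.67 (SE 0.35, adjusted p = 0.245), and 1.24 (adjusted p = 0.0133) without that mouse. The other members lay between -0.27 (Trp53inp1) and 0.22 (Bax). Without the 4 libraries that hold foreign transcripts, Cdkn1a was at 0.63 (adjusted p = 0.687).

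A fit of the month 2 groups alone, with its own estimate of the spread, called Cdkn1a (1.08, adjusted p = 0.0424) and Phlda3 (0.75, adjusted p = 0.0398). The values were of the same size in both fits, and the calls differed.

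At month 6 no member was called by edgeR, DESeq2 or limma-voom, and none had an unadjusted p below 0.05 in edgeR. Of all tested genes 11.4% were called in either direction. Cdkn1a was spread from 0.598 to 7.92 CPM, with a median of 1.57, and its log2 fold change was 0.73 (SE 0.48, adjusted p = 0.367). Phlda3 stayed between 1.47 and 2.54 CPM (0.44, SE 0.28, adjusted p = 0.340) and Eda2r between 1.81 and 3.70 CPM (0.23, SE 0.31, adjusted p = 0.698). The other members lay between -0.21 (Mdm2) and 0.13 (Bax). Between CCl4 months 2 and 6 no member was called, while 0.502% of all tested genes were called in either direction. None of the 9 had an adjusted p below 0.586 there.

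The difference between the effect of CCl4 at month 12 and at month 2 was tested as an interaction. It was called for Phlda3 (2.53 on the log2 scale, SE 0.46, adjusted p = 1.42e-04) and Bax (0.69, SE 0.18, adjusted p = 0.00634), 2 of 9, with 11.2% of all tested genes called in that direction. Cdkn1a had 1.83 (SE 0.81, adjusted p = 0.107) and Eda2r 1.12 (SE 0.50, adjusted p = 0.109), larger than that of Bax but with wider errors. Aen (0.55, adjusted p = 0.0609), Zmat3 (0.59, adjusted p = 0.0652) and Mdm2 (0.46, adjusted p = 0.0806) also missed the threshold. Leaving out single libraries gave between 2 and 5 calls, 5 without month 12 CCl4 mouse 6 and 4 each without mouse 3 or mouse 5 of that group.

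Within the CCl4 groups, 8 of 9 members were higher at month 12 than at month 6, all but Trp53inp1 (0.17, adjusted p = 0.639). Of all tested genes 20.6% were called higher in that comparison. The log2 differences were 2.89 for Phlda3, 2.87 for Cdkn1a, 1.32 for Eda2r, 0.73 for Bax, 0.66 for Zmat3, 0.60 for Aen, 0.50 for Mdm2 and 0.35 for Ccng1. Ranges were separate for Phlda3, Bax and Ccng1, with 8.59% of all tested genes higher without overlap. Mdm2 was at 0.26 without month 12 mouse 2, and Cdkn1a at 3.53 without month 6 mouse 2, the highest of its group. The comparison shares its month 12 livers with the comparison against oil.

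Within the oil groups no member was called between months 2 and 12 by edgeR, where 0.0717% of all tested genes were called in either direction. Cdkn1a came nearest, with a median of 0.978 CPM at month 2 and 2.62 CPM at month 12. Its log2 difference was 1.39 (SE 0.60, adjusted p = 0.355).

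The livers titled month 0 control held more Cdkn1a than those of month 2 oil. This difference was not called with the ratio of the clock genes Arntl and Dbp in the fit (-0.83, adjusted p = 0.0692). That ratio had separate ranges in the 2 groups, so ratio and group cannot be told apart here. Cdkn1a was between 2.94 and 16.2 CPM at month 0, with a median of 11.1, and between 0.731 and 1.63 CPM in month 2 oil. No value was shared between the groups, and month 2 oil was lower by a log2 difference of -3.27 (SE 0.60, adjusted p = 1.06e-04). Bax was between 14.03 and 20.27 CPM at month 0 and between 9.64 and 13.1 CPM in month 2 oil (-0.46, SE 0.13, adjusted p = 0.00684). Aen was between 17.6 and 26.01 CPM at month 0 and between 10.6 and 16.1 CPM in month 2 oil (-0.64, SE 0.15, adjusted p = 0.00141). These 3 of 9 members were called lower in month 2 oil and had separate ranges, while 16.4% of all tested genes were called lower and 6.92% were lower with separate ranges. Cell type markers also differed between these groups. In month 2 oil 0 of 6 neutrophil markers were higher and 5 lower, and the summed level was 46.7 to 116 CPM at month 0 and 11.04 to 19.03 CPM in month 2 oil, with no overlap. Of 7 erythroid markers 5 were higher (184 to 1047 CPM at month 0, 999 to 1808 CPM in month 2 oil), of 8 markers of T, NK and B cells 4 (2.66 to 4.68 and 3.74 to 19.2 CPM) and of 6 mesothelial markers 4 (7.01 to 18.7 and 25.7 to 57.8 CPM). The part of these cells in the member levels was not tested. Phlda3 (0.18, adjusted p = 0.739) and Eda2r (0.50, adjusted p = 0.316), which stood out at month 12, were not called here. Cdkn1a in month 12 CCl4 overlapped the month 0 range, whereas Phlda3, at most 2.08 CPM at month 0, did not.

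Cdkn1a varied from mouse to mouse with the genes of the circadian clock. Arntl (Bmal1) is a core activator of the clock, and Dbp is an output gene that peaks when Arntl is low. At month 6, mice 1 and 2 had 22.5 and 21.98 CPM of Arntl and 4.99 and 7.92 CPM of Cdkn1a, and mouse 3 had 13.2 CPM of Arntl and 2.09 CPM of Cdkn1a. Mice 4, 5 and 6 had 1.67, 1.73 and 1.93 CPM of Arntl and 0.704, 1.05 and 0.598 CPM of Cdkn1a. The 3 mice high in Arntl were thus the 3 high in Cdkn1a, under 1 treatment and time.

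Other groups followed this order in part. At month 12 under CCl4, mice 4 and 6 had the highest Arntl (14.25 and 14.02 CPM), the lowest Dbp (3.84 and 3.19 CPM) and the highest Cdkn1a (31.4 and 46.3 CPM). Mice 1 and 5 had the lowest Arntl (5.72 and 4.69 CPM), the highest Dbp (42.6 and 37.0 CPM) and the lowest Cdkn1a (9.12 and 5.92 CPM). In month 12 oil, mouse 4 alone had low Arntl (2.75 CPM) and also the lowest Cdkn1a (0.587 CPM). At month 0, the mice with the lowest Arntl, 6 and 1, had the lowest Cdkn1a (2.94 and 4.61 CPM). Several mice did not follow it. Month 2 CCl4 mouse 6 had the lowest Arntl of its group (0.919 CPM) but the third highest Cdkn1a (2.44 CPM), above mouse 2 with 3.96 CPM of Arntl and 1.71 CPM of Cdkn1a. Month 2 oil mouse 2 had the lowest Arntl of its group (1.23 CPM) and the third highest Cdkn1a (1.01 CPM). In month 12 oil, mouse 1 had the highest Arntl (27.7 CPM) and was the third in Cdkn1a (2.78 CPM).

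The clock genes differed between groups as well. Mean Arntl was 17.4 CPM at month 0, 2.87 in month 2 oil, 3.91 in month 2 CCl4, 10.5 in month 6 CCl4, 19.4 in month 12 oil and 9.87 in month 12 CCl4. Mean Dbp in the same order of groups was 7.98, 65.9, 80.3, 56.5, 17.6 and 21.03 CPM. The 2 groups with the highest Arntl had the lowest Dbp and the 2 of month 2 the lowest Arntl and the highest Dbp, but the order was not strictly opposite. Time of death is not among the labels used here, so hour of sampling and group cannot be told apart. The log2 ratio of Arntl to Dbp was therefore added to the fit as a measure per mouse, an alternative chosen after seeing the data.

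With the clock ratio in the fit, the CCl4 effect on Cdkn1a was 3.39 at month 12 (adjusted p = 1.08e-12), 1.11 at month 2 (adjusted p = 0.00400) and 0.32 at month 6 (adjusted p = 0.388). Its interaction was 2.28 (adjusted p = 1.55e-05), and the effect at months 2 and 12 and their difference were thus called. The difference of month 2 oil from month 0 shrank to -0.83 (adjusted p = 0.0692) and was no longer called. The log2 ratio had separate ranges in these 2 groups, -1.71 to 3.85 at month 0 and -5.20 to -2.90 in month 2 oil. Ratio and group thus cannot be told apart for any gene in this comparison, and no conclusion is drawn from the change. The difference between the oil groups turned from 1.39 to -0.76, and that between CCl4 months 6 and 2 from 0.35 to -1.18, neither called. The ratio in month 12 oil was -3.92 to 2.98, and mouse 4 alone lay within the range of month 2 oil. Ratio and group can thus hardly be told apart between the oil groups, and no conclusion is drawn from that turn. Phlda3 and Eda2r at month 12 were 3.41 and 1.87 with the ratio in the fit, and 7 of 9 members were again called. In that fit 4090 of all tested genes were called higher at month 12 and 3691 lower. Bax in month 2 oil against month 0 was at -0.34 (adjusted p = 0.145) and lost its call, while Trp53inp1 gained one (0.98, adjusted p = 0.0146).

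**Figure D3:**
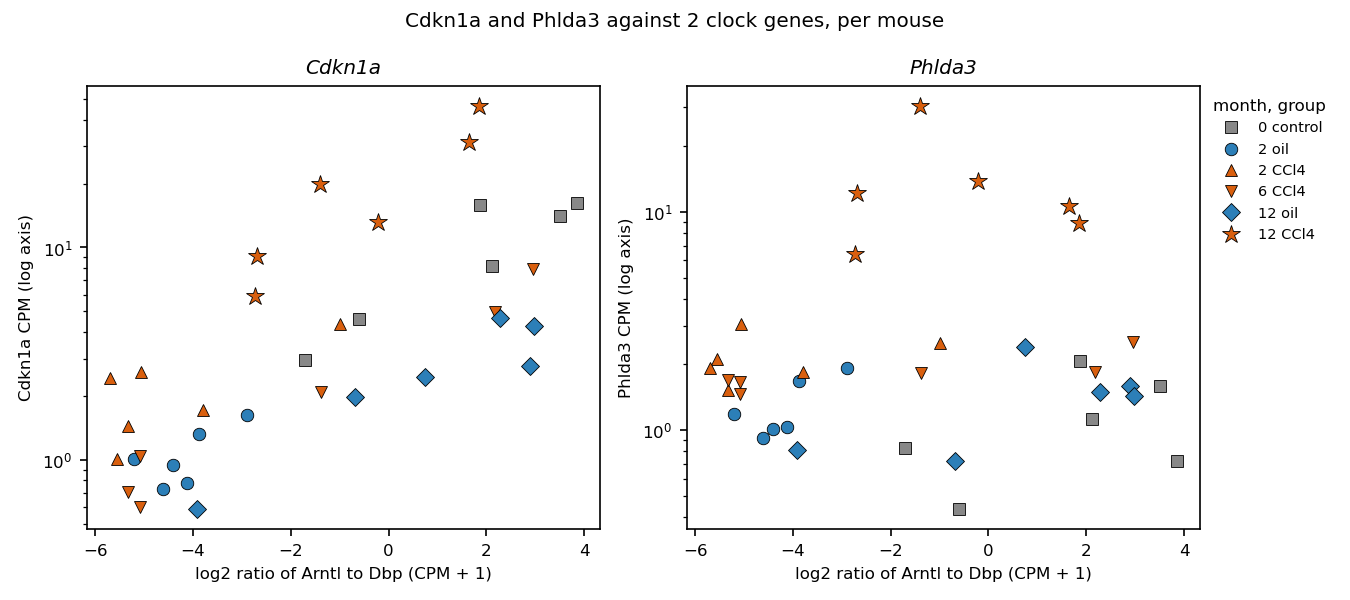
Cdkn1a (left) and Phlda3 (right) in CPM on a log axis against the log2 ratio of Arntl to Dbp (CPM + 1), 1 point per mouse, 6 mice in each of 6 groups. In 5 of the 6 groups, all but month 12 oil, the mouse with the highest ratio also has the highest Cdkn1a. Phlda3 is high in the 6 month 12 CCl4 mice, whose ratios run from -2.74 to 1.84.

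The members did not all peak in the same mouse. In month 12 CCl4, mouse 2 had the highest level of 7 of the 9 genes: Mdm2 (54.2 CPM), Ccng1 (83.3), Bax (33.4), Phlda3 (30.4), Eda2r (9.42), Zmat3 (12.7) and Aen (28.3). Its Mdm2 was 2.03 times and its Phlda3 2.67 times the group median. Cdkn1a and Trp53inp1 were instead highest in mouse 6 (46.3 and 228 CPM) and next highest in mouse 4 (31.4 and 215 CPM), the 2 mice with the highest Arntl. Trp53inp1 did not follow Arntl in each group: at month 0 it was highest (132 CPM) in the mouse with the lowest Arntl (5.83 CPM). In month 2 CCl4, the mouse with the highest Arntl (14.3 CPM) was also the highest in Trp53inp1 (197 CPM). Within month 12 CCl4, mouse 6 had the lowest Mdm2, Eda2r, Zmat3 and Aen. Of the 11 marker lists, mouse 2 was highest in none by summed level and the second highest in hepatocyte (114597 CPM), neutrophil (36.9), lymphocyte (11.3) and erythroid markers (2999.9). Mouse 6 was highest in hepatocyte (120495 CPM), cholangiocyte (1099) and neutrophil markers (49.3) and lowest in macrophage (398), pancreas (38.5), intestinal (35.98) and mesothelial markers (9.49).

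Other groups also held a mouse that was high in most members. Month 0 mouse 5 was highest in 7 of 9 members, month 6 mouse 2 in 8, month 2 oil mouse 5 in 5 and month 2 CCl4 mouse 1 in 5. Month 0 mouse 5 had the highest cholangiocyte (418 CPM), macrophage and mesothelial markers of its group, and month 6 mouse 2 the highest cholangiocyte, stellate cell, neutrophil and mesothelial markers of its group. The part of these in the member levels was not tested.

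**Figure D4:**
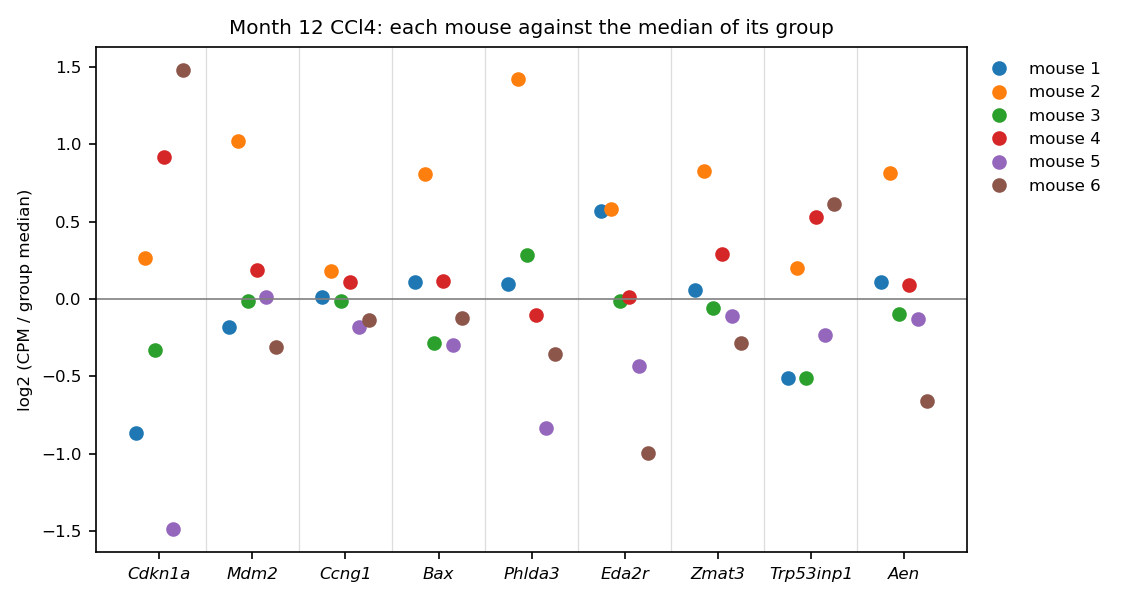
Month 12 CCl4: log2 of each mouse's CPM over the median of its group of 6, for each of the 9 genes. Mouse 2 is the highest point in 7 genes, and mouse 6 is highest for Cdkn1a and Trp53inp1 and lowest for Mdm2, Eda2r, Zmat3 and Aen.

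Genes upstream of p53 moved in both directions at month 12. Of 17 tested genes for p53 and its regulators, 7 were higher and 5 lower (median -0.02). Trp53, the p53 gene itself, had a mean of 7.83 CPM in oil and 10.1 CPM in CCl4 (log2 fold change 0.37, adjusted p = 0.00227). Mdm4, which inhibits p53, rose slightly (0.24, adjusted p = 0.0230). Cdkn2a has an alternative product, p19Arf, that inhibits Mdm2, and another, p16, that is a cell cycle inhibitor. It rose by 2.70 on the log2 scale (adjusted p = 2.84e-04), from a mean of 0.403 to 2.62 CPM. The gene's count does not separate the products. The kinase gene Chek1 (1.16) and Trp53bp2 (0.47) were higher. Sirt1, a deacetylase that acts on p53 (-0.72), and the DNA repair kinase gene Prkdc (-0.48) were lower.

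Among p53 targets of arrest and repair outside the 9, 7 of 15 were higher and 0 lower (median 0.38). Sesn2, a stress-induced inhibitor of mTORC1 signalling (1.05), Ddb2, a sensor of damaged DNA (0.91), and Pcna, the replication clamp (0.44), had the smallest p. Gadd45a, a classical damage gene, was not called (0.05, adjusted p = 0.920).

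Among targets of cell death, 5 of 13 were higher and 3 lower (median 0.09). Pmaip1 (Noxa) rose by 1.36 on the log2 scale, and it was also called at month 2 (0.84, adjusted p = 0.0368). Trp53i11 (1.26), the death receptor gene Tnfrsf10b (1.21) and Apaf1, the core of the apoptosome (1.08), were higher. Ei24 (-0.56), Dapk1 (-0.62) and Perp (-0.25) were lower. Bbc3 (Puma; -0.29, adjusted p = 0.324) and Fas (-0.17, adjusted p = 0.302) were not called.

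Among metabolic and other targets, 11 of 18 were higher and 1 lower (median 0.54). On the log2 scale, the cytokine gene Lif rose by 3.53, the mTOR inhibitor gene Ddit4 by 1.98 and the AMPK subunit gene Prkab1 by 0.90. Gls2, a glutaminase, was lower (-0.81). These lists, read against 25.9% of all genes higher, thus held 41.2% of p53 regulators, 46.7% of arrest and repair genes, 38.5% of death genes and 61.1% of metabolic and other targets higher at month 12. At month 2 the numbers higher were 0, 0, 2 and 1, with 6.996% of all tested genes higher, and at month 6 they were 0, 0, 2 and 3, with 7.71% of all tested genes higher.

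Cell cycle genes were higher in the same livers as the p21 gene. Of 28 genes of the cycle and of DNA replication, 27 were higher at month 12 and 0 lower, all but Tyms (-0.07), with a median of 2.14. Of all tested genes 25.9% were higher and 23.2% lower. Mki67, a marker of cells in cycle, rose from a mean of 5.51 to 26.4 CPM (2.26, adjusted p = 4.65e-07), and Cenpf (3.05), Cdk1 (2.67) and Mcm6 (2.19) had the smallest p. Of 7 other inhibitors of cyclin-dependent kinases by name, 5 were higher: Cdkn3 (4.03), Cdkn2b (3.78), Cdkn2a (2.70), Cdkn2c (1.25) and Cdkn1c (0.72). Cdkn3 is a phosphatase that is itself expressed in dividing cells. Cdkn1b, the p27 gene, was lower (-0.24), and Cdkn2d was not called (0.24). Cdkn2c was called at month 2 (1.89) and month 6 (1.48) too, when 2 and 1 of the 28 cell cycle genes were higher.

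**Figure D5:**
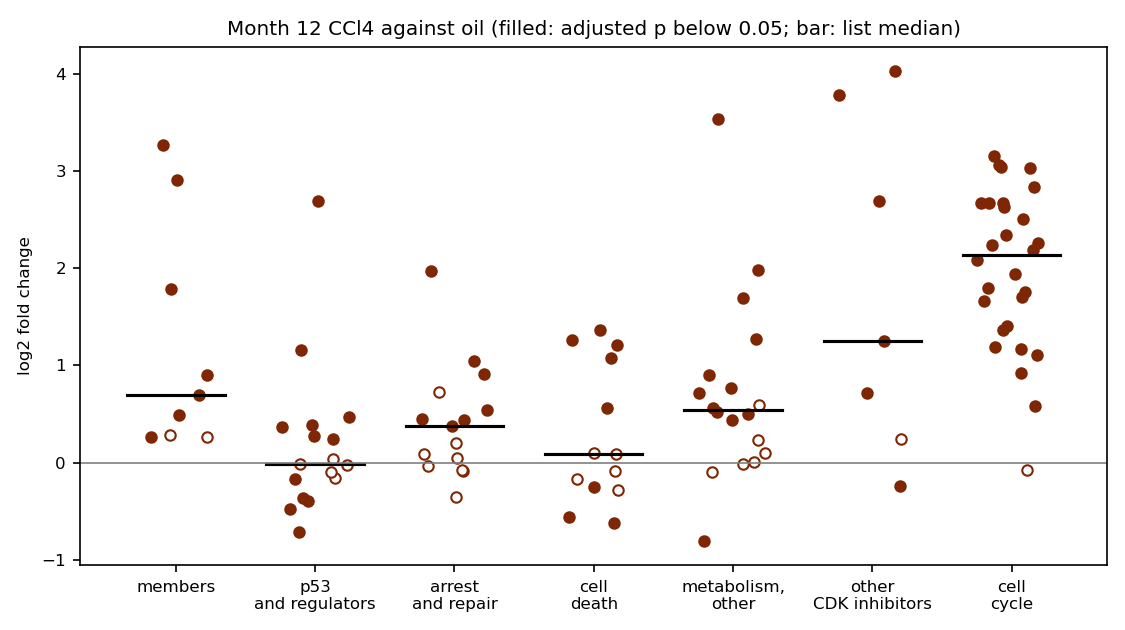
Log2 fold change of month 12 CCl4 against oil for the 9 members and for genes of 6 other lists, 1 point per gene, filled where the adjusted p is below 0.05, with black bars at the list medians. The median is 0.70 for the members, -0.02 for p53 and its regulators and 2.14 for cell cycle genes.

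Genes of the other lists also differed between month 0 and month 2 oil, not in 1 direction. In this comparison 14.8% of all tested genes were higher in month 2 oil and 16.4% lower. In month 2 oil, 3 of 17 p53 regulators (17.6%) were higher and 1 lower, 4 of 15 arrest and repair genes higher and 1 lower (Btg2, -1.18), and 4 of 18 metabolic and other targets higher and 3 lower, among them Ddit4 (-2.06). Of the 13 death genes 0 were higher and 4 lower, among them Fas (-1.09). Of the cell cycle genes 10 of 28 were lower.

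Likeness to Cdkn1a over the 36 livers was ranked by Pearson's r of log2(CPM + 1). The ranking took tested genes that averaged 1 CPM or more and left out the other members and genes with names of predicted genes. The highest were Desi2 (0.92), Pdcl3 (0.90), Tubb5 (0.89), Mgat5 (0.88) and Hebp2 (0.88). The 36 points share group differences and the clock state given above. Desi2 had means of 28.96 CPM at month 0, 16.7 in month 2 oil, 19.1 in month 2 CCl4, 22.8 in month 6 CCl4, 22.8 in month 12 oil and 38.7 in month 12 CCl4. As for Cdkn1a, the highest means were those of month 12 CCl4 and month 0, and the lowest that of month 2 oil. The other members were not ranked, so their likeness to Cdkn1a is not given here.

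Some cell type markers also differed between CCl4 and oil at month 12, where 25.9% of all tested genes were higher and 23.2% lower. Of 10 hepatocyte markers 0 were higher and 6 lower, with a summed level of 80394 to 128813 CPM in oil and 79104 to 120495 CPM in CCl4. Of 8 cholangiocyte markers 4 were higher and 0 lower, and their summed level was 45.8 to 99.6 CPM in oil and 219 to 1099 CPM in CCl4. Of 10 macrophage markers 6 were higher and 1 lower (503 to 646 CPM in oil, 398 to 1126 CPM in CCl4), of 8 endothelial markers 5 higher and 2 lower (295 to 356 and 288 to 406 CPM), and of 8 markers of T, NK and B cells 4 higher and 0 lower (4.55 to 10.7 and 7.86 to 14.5 CPM). Of 9 stellate cell markers 2 were higher and 2 lower, of 7 erythroid markers 2 and 1, and of 7 intestinal markers 1 and 2. Of 6 neutrophil markers 1 was higher and 0 lower, of 6 mesothelial markers 0 and 1, and of 10 pancreas markers 0 and 0. The part of these cell types in the member levels was not tested. Without the 4 libraries that hold foreign transcripts, the month 12 log2 fold change was 2.84 for Cdkn1a, 3.47 for Phlda3, 1.95 for Eda2r and 0.86 for Bax. There 6 of 9 members were called, Ccng1 being the one lost. In the same fit 5 of 17 p53 regulators, 6 of 15 arrest and repair genes, 5 of 13 death genes, 11 of 18 metabolic and other targets and 27 of 28 cell cycle genes were higher, with 25.8% of all tested genes higher.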

How the data were processed

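Whole-liver RNA was sequenced from 36 mice in 6 groups of 6. Per the labels' protocols, TRIzol extraction was followed by removal of ribosomal RNA, stranded library preparation, paired-end sequencing and mapping with Biojupies. The submitters' processing notes name mm10, edgeR 3.30.3 and limma 3.44.3. No source used here names the gene annotation. The authors deposited raw counts, a whole number for each of 32544 symbols in each library. Totals ran from 19403247 to 28917545 per library. The reads carry no molecular identifiers.

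Here, filterByExpr kept 15338 genes, and these were scaled by TMM (factors 0.757 to 1.33) and tested with the quasi-likelihood test of edgeR 4.0.16 in R 4.3.3. All 36 libraries entered 1 fit, with 8 comparisons, each adjusted by Benjamini-Hochberg over all tested genes and called below 0.05. Levels are CPM after TMM, mean and SD over 6 libraries. The standard error is the log2 fold change over the square root of F. All 9 members were named in each comparison. From each other list the 3 genes with the smallest month 12 p were named, with up to 3 called against the list median and 8 panel genes. Genes named beyond that rule were chosen after their values were seen. Of the lists, 1 gene (Ptprv) had no row. The members and lists were chosen with earlier results of these data known. Sites were searched in RefSeq start windows of GRCm38.p6.

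Alternatives were library totals alone, RLE in place of TMM, a filter of 1 CPM in 6 libraries or none, DESeq2 1.42.0, limma-voom (limma 3.58.1), a block for the replicate number, the compared groups only, each oil group alone as the month 6 reference, each library left out in turn, 4 libraries left out together, and the clock ratio as a covariate, which was chosen after seeing the data. On simulated data for month 2 (15205 genes) the test recovered 68% of 2-fold and 91% of 4-fold changes with 0 of the wrong sign, and 3% of calls were unchanged genes. No 2 libraries of a group were copies: over 90 pairs, chi-square divided by its degrees of freedom was at least 22.9.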

Additional observations from a re-analysis of the deposited data

Results flagged for a closer look

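Within 54 groups of 6 mice (9 genes in 6 groups), 8 held a mouse farther from the rest than Dixon's limit for 6 values allows. Chance flags about 1 in 20 such groups. In month 12 CCl4, mouse 2 was high in Mdm2 (54.2 CPM), Bax (33.4 CPM) and Phlda3 (30.4 CPM). The same liver was the highest of its group in 7 of 9 members, a count that was not made over all tested genes. In month 0, mouse 5 was high in Ccng1 (102.7 CPM) and Eda2r (4.03 CPM). In month 2 oil, mouse 5 was high in Eda2r (6.98 CPM), and without it the month 2 CCl4 effect on Eda2r was 1.24 in place of 0.67. In month 6 CCl4, mouse 2 was high in Phlda3 (2.54 CPM), and in month 2 CCl4, mouse 2 was low in Zmat3 (3.86 CPM).

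The CCl4 effect differed between months 12 and 2, by the interaction test of edgeR, for Phlda3 (2.53 on the log2 scale, adjusted p = 1.42e-04) and Bax (0.69, adjusted p = 0.00634).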

How the results depend on the processing

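The month 12 calls of Cdkn1a, Bax, Phlda3, Eda2r, Zmat3 and Aen kept their direction and their side of the threshold under every alternative run. The number of members called at month 12 was 6 (RLE, DESeq2, no filter, replicate block, without 4 libraries) to 9 (library totals alone), and 6 to 8 without single libraries. Month 2 gave 1 call with library totals alone, with the clock ratio and with limma-voom, 2 with the compared groups only, and 0 to 1 without single libraries. Month 6 gave 3 with library totals alone. The interaction gave 8 with library totals alone and 2 to 5 without single libraries. Without single libraries, the calls of month 12 against month 6 CCl4 stayed at 8 and those of month 2 oil against month 0 at 3 to 4. The compared groups only gave 7 for month 12 against month 6 CCl4, and the clock ratio gave 2 for month 2 oil against month 0. Of 1026 single-gene values with 1 library left out, 971 kept direction and call, 16 gained a call, 8 lost one and 31 changed sign. Of 738 under the other alternatives, these were 683, 20, 9 and 26. Causes were not tested.

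Direction turned only for values that were called neither way. At month 2 Ccng1 was -0.014 with RLE and DESeq2, -0.0032 without a filter and -0.089 without 4 libraries, and with library totals alone Mdm2 was 0.0037 and Aen 0.13. At month 6 library totals alone gave 0.11 for Mdm2, 0.20 for Ccng1 and 0.17 for Aen. There Trp53inp1 was -3.3e-04 with the replicate block, -0.0086 with limma-voom and -0.057 against month 2 oil, where Eda2r was -0.0030. Between the oil groups, Mdm2 was -0.054 and Zmat3 -0.029 with library totals alone, Phlda3 -0.10 and Zmat3 -0.028 without 4 libraries, and Cdkn1a -0.76, Phlda3 -0.25 and Zmat3 -0.011 with the clock ratio. Mdm2 in month 2 oil against month 0 was 0.023 with library totals alone. From CCl4 month 2 to 6, Zmat3 was 0.055 with library totals alone and 0.031 without 4 libraries, Cdkn1a -1.18 with the clock ratio and -0.18 with limma-voom, and Trp53inp1 -0.021 with the clock ratio.

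With 1 library left out in turn, ranges crossed zero for Ccng1 (-0.072 to 0.13) and Aen (-0.14 to 0.0034) at month 2, Trp53inp1 (-0.20 to 0.14) and Zmat3 (-0.020 to 0.10) at month 6, and Eda2r in month 2 oil against month 0 (-0.073 to 0.88). Between the oil groups they did so for Ccng1 (-0.11 to 0.068), Eda2r (-0.65 to 0.10), Mdm2 (-0.0013 to 0.11), Phlda3 (-0.079 to 0.28) and Zmat3 (-0.018 to 0.14). From CCl4 month 2 to 6 they did so for Cdkn1a (-0.29 to 0.64), Mdm2 (-0.015 to 0.042), Trp53inp1 (-0.0090 to 0.41) and Zmat3 (-0.10 to 0.027).

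The replicate number did not pair the mice: deviations of same-numbered mice correlated between -0.464 and 0.469 (median -0.03, 90 pairs), and 3 of 36 libraries correlated best with their own number. The replicate block gave 6 month 12 calls in place of 7 and moved no other count by over 1.5 times.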
